A study of Homo sapiens with 12 samples.

Results

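The nuclear genes for subunits of the mitochondrial respiratory chain were examined in Rh30, a human alveolar rhabdomyosarcoma cell line that carries the PAX3-FKHR fusion gene. The members were chosen by gene symbol on the array design, with earlier results of these data known. They comprised 50 of 30238 gene names: 24 subunits of complex I, 3 of complex II, 5 of complex III, 11 of complex IV and 7 of complex V. They were covered by 76 of the 41000 gene probes, and the brightest probe stood for each gene. WT was the parental Rh30 culture. CON was 1 clone of Rh30 stably expressing a non-targeting shRNA, and KD1 was 1 clone stably expressing an shRNA against PAX3-FKHR. The medium of the clones, but not that of WT, held puromycin at 1 µg/ml, so the selection and the clone come with each difference between a clone and WT and cannot be told apart from it. KD1 and CON are 1 clone each, so between them the shRNA and the clone cannot be told apart either. Cells grew for 24 h before RNA was taken, and 500 ng of each RNA was labelled. Each of 6 RNA extracts, 2 per culture, was hybridized on 4 of 12 two-colour arrays, which gave the ratios of KD1 to CON (KD1/CON), of KD1 to WT (KD1/WT) and of WT to CON (WT/CON), each in 2 biological replicates that were run in both dye orientations. All samples are bulk RNA of whole cultures, in which fewer cells of a type and less RNA per cell cannot be told apart.

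The respiratory chain passes electrons from NADH at complex I and from succinate at complex II through complex III to oxygen at complex IV, and pumps protons out of the mitochondrial matrix at complexes I, III and IV. Complex V, the ATP synthase, uses the returning protons to make ATP. A few core subunits are encoded by mitochondrial DNA and are not among these genes; the members are nuclear genes whose products are imported. Skeletal muscle uses muscle isoforms of some complex IV subunits, such as COX6A2 and COX7A1, in place of the ubiquitous COX6A1 and COX7A2. The chain also takes the electrons set free by oxidation of fatty acids, which CPT1A, the gene the series is named for, admits to mitochondria.

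None of the member subunits was called in any of the 3 comparisons, and none had a mean beyond 2-fold. The log2 ratios of single subunits, each the mean of 2 biological replicates, ran from -0.76 (NDUFA1) to 0.40 (UQCRB) in KD1/CON. The 60-base probes of NDUFA1, NDUFA9 and COX7A1 are shown here, since the reading of these genes rests on them. NDUFA1, an accessory subunit in the membrane arm of complex I that is encoded on the X chromosome, was the lowest member in both KD1 comparisons and was read by a pair of probes that share the 25 bases in capitals, so their agreement is not independent. The one used lies at chrX:118891323-118891382 and the further one spans 3180 bases at chrX:118891358-118894537, which crosses an intron (NCBI36, plus strand).
NDUFA1, probe used: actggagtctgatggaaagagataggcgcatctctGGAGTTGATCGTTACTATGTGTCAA
NDUFA1, further probe: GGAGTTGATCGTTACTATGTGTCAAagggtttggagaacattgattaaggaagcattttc
NDUFA9, an accessory subunit where the peripheral arm of complex I meets the membrane arm, was the highest member in WT/CON. Its probes do not overlap and lie at chr12:4664700-4666371 and chr12:4647936-4649211 (NCBI36, plus strand), each across an intron.
NDUFA9, probe used: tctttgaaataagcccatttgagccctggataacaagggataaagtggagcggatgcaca
NDUFA9, further probe: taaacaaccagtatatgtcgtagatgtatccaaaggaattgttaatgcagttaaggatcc
COX7A1, the muscle isoform, was the 1 member that could not be tested. Its probe at chr19:41334218-41334277 (NCBI36, minus strand) was not well above background in any culture, with 0 of 8 arrays in each.
COX7A1: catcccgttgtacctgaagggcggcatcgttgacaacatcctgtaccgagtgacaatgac

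The arrays were alike in the share of signals well above background, 71.1 to 73.6% in Cy3 and 64.4 to 67.8% in Cy5. They differed in the 99th percentile of the negative controls, which sets the filter of the tests. It ran from 1.81 to 40.6 in Cy3 and from 2.53 to 40.6 in Cy5, and was highest on the first KD1/CON array of replicate 1. A dye-swap pair holds the same 2 RNAs with the dyes exchanged, and 1 of the 6 pairs stood apart. Across 15706 tested genes the log2 ratios of the 2 arrays correlated with r = 0.48 in the KD1/WT pair of replicate 2 and with r of 0.85 to 0.89 in the other 5 pairs. Over the 49 tested subunits r was -0.28 in that pair and 0.69 to 0.82 in the others. The median subunit read 0.13 on its first array and -0.36 on its dye-swapped array. The mean of that pair was set beside the ratio computed from the other arrays of the replicate, KD1/CON minus WT/CON. The median absolute difference was 0.06 over the subunits, against 0.04 in replicate 1. This difference has the same size for each pair of a replicate, so it does not single out the pair that stood apart. Results for KD1/WT were taken from pair means, and the same count of calls without that pair was 0 of 49 (limma, lowest adjusted p = 0.213). That alternative was chosen after the data were seen.

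**Figure D1:**
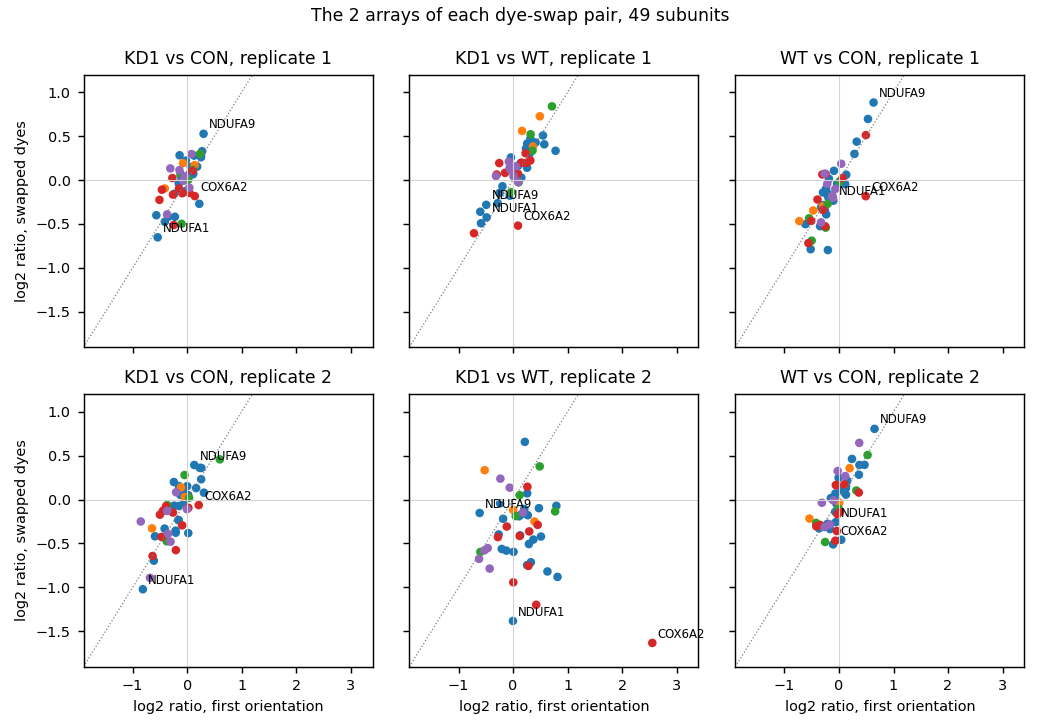
Log2 ratio of each of 49 subunits on the first array (x axis) against the dye-swapped array (y axis) of each pair, coloured by complex as in the plot of all members (blue complex I, orange II, green III, red IV, purple V). Points follow the dotted line of equality in 5 panels, with r of 0.69 to 0.82, and scatter in KD1/WT replicate 2, where r was -0.28 and COX6A2 read 2.55 and -1.63.

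Of the cell type markers, the rhabdomyoblast genes MYOD1, MYOG, DES, CHRNA1 and CDH15 all passed the background limit on 8 of 8 arrays per culture. Of the epithelial markers EPCAM, KRT8, KRT18 and CDH1, EPCAM was well above background on 4 of 4 arrays of the WT replicate 2 extract, CDH1 on 2 of 4, and neither on any array of the other 5 extracts. KRT8 and KRT18 passed on 8 of 8 arrays per culture and PTPRC, which marks leukocytes, on 0 of 8. CD3E, CD14, PECAM1 and VWF passed on 8 of 8 arrays per culture and CDH5 on 2 or 3. KRT18 read 0.95 and 0.91 in the replicates of WT/CON and was not called (limma, adjusted p = 0.082). The part of the epithelial signal in the subunit values was not tested, and the WT comparisons of the members and complexes are given with their replicates, of which replicate 1 is without that extract. PAX3 read -0.42 in KD1/CON and -0.39 in KD1/WT, and FOXO1, the partner named FKHR, -0.42 and -0.60, none of them called (limma, adjusted p of 0.273 to 0.432). These probes were not matched to the fusion transcript, and normal PAX3 and FOXO1 transcripts may be read with it. Several other marker ratios stood away from 0 and were not called. VWF, an endothelial marker, read 1.01 and 2.97 in the replicates of KD1/CON, where it was not tested, and 1.02 and 3.42 in KD1/WT (limma, adjusted p = 0.109). KRT18 read -1.02 and -1.26 in KD1/WT (limma, adjusted p = 0.0521), and DES, the muscle intermediate filament, had means of 0.50 in KD1/CON and 0.74 in KD1/WT. The part of these shifts in the subunit values was not tested. MYOG, a myogenic regulator, read -1.35 and -0.92 in KD1/CON (limma, adjusted p = 0.0508). It was the only tested marker called, lower in WT than in CON with replicate values of -1.96 and -1.49 (limma, adjusted p = 0.0185, 0.00337 to 0.196 over the alternatives). The loading controls GAPDH and ACTB read 0.64 and 0.82 in WT/CON and were not called (limma, adjusted p = 0.175 and 0.195). They read 0.43 and 0.28 in KD1/CON and -0.25 and -0.50 in KD1/WT, also without a call (limma, adjusted p of 0.302 to 0.65).

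In KD1/CON, 0 of 49 tested subunits were called (limma, lowest adjusted p = 0.113), while 1.79% of all 21937 tested probes were (1.02% lower and 0.775% higher). At an unadjusted p under 0.05 there were 4 subunits, all lower in KD1 (NDUFA1, ATP5C1, NDUFB6 and COX7B), against a background of 17.2% of probes. In KD1/WT, 0 of 49 were called (limma, lowest adjusted p = 0.214) against 1.05% of 24884 probes (0.764% lower and 0.285% higher). The 3 subunits at an unadjusted p under 0.05 there were NDUFA1 and COX6A1, lower in KD1, and NDUFA10, higher in KD1 on its brightest probe. Of all probes, 17.2% were below that p. In WT/CON, 0 of 49 were called (limma, lowest adjusted p = 0.129) against 1.37% of 26595 probes (0.594% lower and 0.778% higher), and NDUFA9 and NDUFC2, both higher in WT, had an unadjusted p under 0.05 against 16.5% of probes. A selection written here after the criteria in the study's methods, at least 2-fold in both KD1 comparisons with 1 direction on each KD1 array, took 0 subunits and 1.64% of 15718 genes. It does not rebuild the study's own gene list.

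As a description without a test, the subunits lay closer to 0 than genes in general. The median absolute log2 ratio was 0.16 in KD1/CON, 0.13 in KD1/WT and 0.16 in WT/CON, and 0.23, 0.24 and 0.24 over all tested genes. This was not particular to the subunits. Mitochondrial ribosomal proteins gave 0.19, 0.20 and 0.17 and cytosolic ones 0.13, 0.19 and 0.22. The sets were not matched for signal strength. The 95% interval of the ratio lay within 2-fold in either direction for 45 of 49 subunits in KD1/CON (91.8%, against 75.9% of all genes). It did so for 47 in KD1/WT (95.9% against 72.6%) and for 48 in WT/CON (98.0% against 72.1%). For these subunits a change of 2-fold or more was outside the 95% interval, which is not adjusted for the number of probes. Smaller changes were not resolved by 2 replicates for most of them, whose intervals held 0. The intervals of NDUFA10 and COX6A1 in KD1/WT and of NDUFC2 in WT/CON did not hold 0, and none of these was called. The intervals that reached past 2-fold in KD1/CON belonged to NDUFA1 (-1.21 to -0.30), ATP5C1 (-1.09 to -0.08), NDUFB6 (-1.03 to -0.06) and COX7B, whose interval barely passed 2-fold and ended at -0.01. Ribosomal proteins also had most intervals within 2-fold in KD1/CON, KD1/WT and WT/CON. The shares were 92.1, 96.1 and 94.8% for mitochondrial and 96.1, 94.8 and 93.5% for cytosolic ones.

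**Figure D2:**
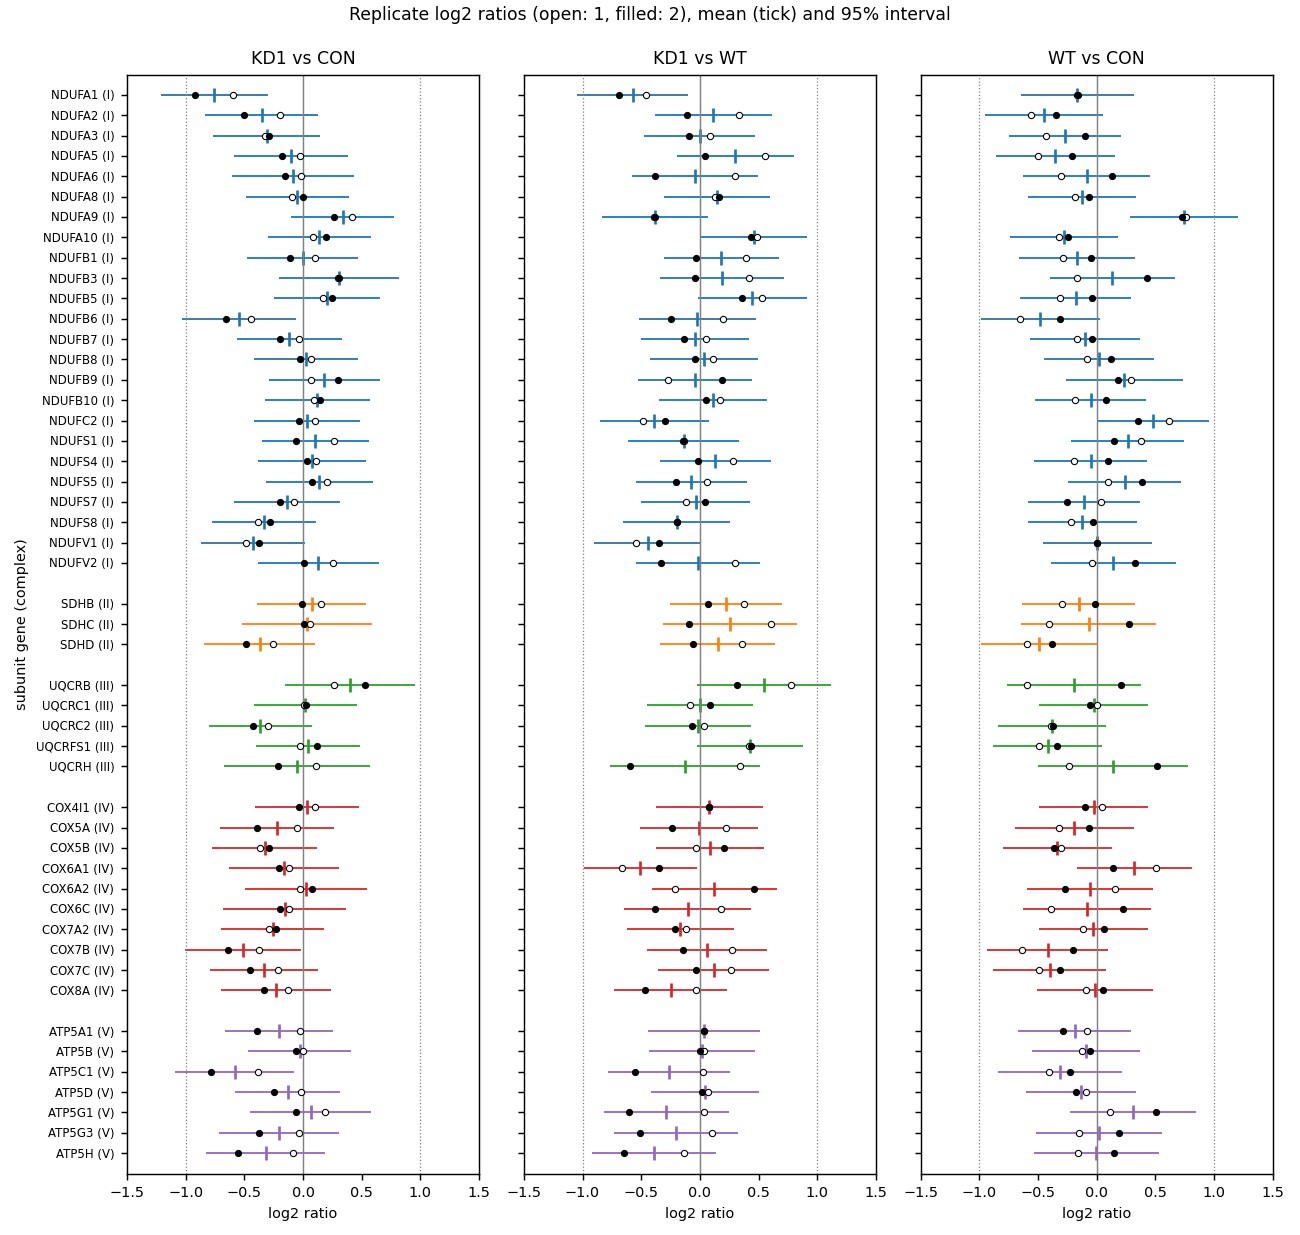
Log2 ratio (x axis) of each of the 49 tested subunits (y axis, complex in brackets) in the 3 comparisons. Open points are biological replicate 1, filled points replicate 2, ticks the mean and lines the 95% interval from the limma fit; dotted lines mark 2-fold. Of the 49 intervals, 45, 47 and 48 lie within the dotted lines.

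**Figure D3:**
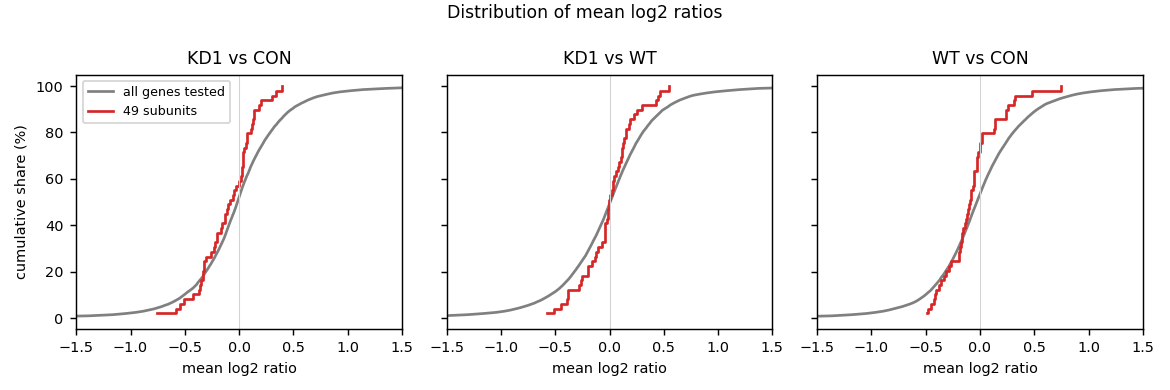
Cumulative share (y axis, %) of genes up to each mean log2 ratio (x axis) for the 49 subunits (red) and for all tested genes (grey; 15757, 17849 and 19123 genes). The red curves are steeper, and the subunits run from -0.76 to 0.40, -0.57 to 0.55 and -0.49 to 0.74.

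The small shifts of the whole group differed between the replicates. The median subunit read -0.02 in replicate 1 and -0.18 in replicate 2 of KD1/CON, 0.09 and -0.09 in KD1/WT, and -0.18 and -0.04 in WT/CON. The medians of all tested genes stayed between -0.06 and 0.05 in these 6 values. In KD1/WT the 2 replicates therefore put the median subunit on opposite sides of 0. Replicate 2 read lower than replicate 1 for 69.4% of subunits in KD1/CON and for 71.4% in KD1/WT, and for 26.5% in WT/CON, where all genes gave 52.2%, 52.7% and 46.7%. Subunits outside the member list gave 81.25%, 84.4% and 12.1%, so the shift was not particular to the members. Mitochondrial ribosomal proteins gave 50%, 85.7% and 10.4%, and cytosolic ones 29.9%, 39.0% and 36.4%. The 3 ratios of a replicate come from 3 extracts, so these shares are not independent of each other. The KD1 replicates lie on separate slides, slide 1 and slide 3, while WT/CON was run on slide 2, so for KD1 a slide and a replicate cannot be told apart and each replicate value is a value within 1 slide.

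When the 3 ratios of a replicate were resolved into levels per extract, relative to the mean of the 3 extracts, the median subunit was 0.02 and -0.11 in the KD1 extracts, -0.11 and 0.01 in the WT extracts and 0.07 and 0.05 in the CON extracts. The lowest medians thus belonged to KD1 replicate 2 and WT replicate 1, and both CON extracts were above 0. The median of all tested genes ran from -0.04 to 0.02 over the same 6 extracts. By complex, the furthest values were those of complex II in WT replicate 1 (-0.32) and of complex V in KD1 replicate 2 (-0.22). In each case the other extract of the same culture gave -0.03 and 0.01.

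**Figure D4:**
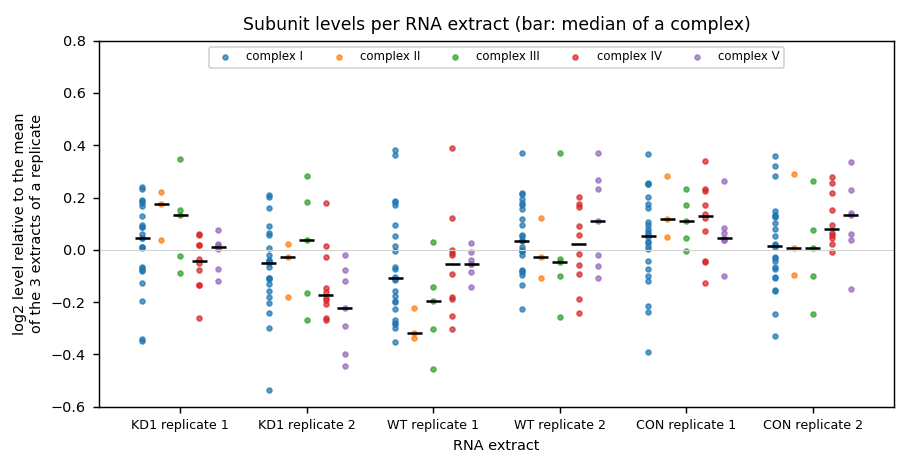
Log2 level (y axis) of each subunit in the 6 RNA extracts (x axis), relative to the mean of the 3 extracts of its replicate, by complex; black bars are the medians of a complex. Complex II was lowest in WT replicate 1, complex V in KD1 replicate 2, and the other extract of each culture did not show the same offset.

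Complex I oxidizes NADH and is the largest complex of the chain. Its 24 members had a median of 0.01 in KD1/CON, with 12 means below 0, -0.02 in KD1/WT with 14 below 0 and -0.09 in WT/CON with 15 below 0. By replicate these medians were 0.07 and -0.05, 0.12 and -0.10, and -0.18 and -0.01, so in both KD1 comparisons they lay on opposite sides of 0. NDUFA1 read -0.54, -0.65, -0.81 and -1.02 on the 4 KD1/CON arrays. All 4 arrays were thus below 0, as for 17 of the 49 subunits and 26.5% of all tested genes, while 10 subunits and 24.9% of genes were above 0 on all 4. In KD1/WT, 5 subunits were below 0 and 3 above 0 on all 4 arrays (16.6% and 16.4% of genes). The mean of NDUFA1 was -0.76 ± 0.23 (SD, n = 2), and it was not called (limma, adjusted p = 0.113). In KD1/WT it read -0.48 and -0.43 on the arrays of replicate 1, and -0.00 and -1.38 on those of replicate 2, the pair that stood apart. Its further probe gave replicate values of -0.61 and -0.92 in KD1/CON.

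The flavoprotein arm of complex I takes up NADH. NDUFV1, its core subunit that binds NADH and FMN, had replicate values of -0.48 and -0.37 in KD1/CON and -0.54 and -0.35 in KD1/WT, and 0.01 and 0.00 in WT/CON. It was below 0 on each of the 8 KD1 arrays without being called in either KD1 comparison (limma, adjusted p = 0.305 and 0.3). NDUFV2, an iron-sulfur subunit of the same arm, had replicate values of 0.26 and 0.01 in KD1/CON, 0.30 and -0.33 in KD1/WT, and -0.04 and 0.32 in WT/CON. NDUFS8, an iron-sulfur core subunit next to the quinone site, read -0.33 in KD1/CON, and NDUFS7, its neighbour in the protein, -0.13. NDUFS1, which carries several of the iron-sulfur clusters, had a mean of 0.11 in KD1/CON, from replicate values of 0.27 and -0.06.

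NDUFA9 read 0.63, 0.88, 0.65 and 0.80 on the 4 WT/CON arrays, a mean of 0.74 ± 0.02 (SD, n = 2), which was not called (limma, adjusted p = 0.129). All 4 arrays were above 0, as were those of 7 of 49 subunits and 20.1% of all genes, and 17 subunits and 23.4% of genes were below 0 on all 4. Its separate further probe gave replicate values of 0.65 and 0.76. KD1 lay between the other cultures for this gene, at 0.34 against CON and -0.38 against WT (replicates -0.39 and -0.38). NDUFB6, in the membrane arm, had replicate values of -0.44 and -0.65 in KD1/CON and of -0.65 and -0.31 in WT/CON. NDUFB3, in the same arm, read 0.30 and 0.31 in KD1/CON, where its replicates were closest to each other among the 10 outermost subunits, but -0.17 and 0.43 in WT/CON. NDUFC2, also of the membrane arm, read 0.61 and 0.35 in WT/CON and -0.48 and -0.29 in KD1/WT, so WT was the higher culture in both. NDUFB5 and NDUFA10, accessory subunits of the membrane arm, were above 0 in KD1/WT, with replicate values of 0.53 and 0.36 for the former and of 0.49 and 0.44 for the latter. The further probes of NDUFA10 did not all read alike. Their means were 0.66, -0.09 and 0.03 in KD1/WT. In WT/CON they were -0.38, 0.37 and 0.24, against -0.28 for the probe used. Other complex I members were among the outermost only in 1 comparison each. NDUFB9 read 0.06 and 0.30 in KD1/CON, NDUFA5 read 0.56 and 0.05 in KD1/WT, NDUFS1 read 0.38 and 0.14 in WT/CON and NDUFA2 read -0.56 and -0.35 there.

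Complex II oxidizes succinate and links the chain to the citrate cycle. SDHB, its iron-sulfur subunit, had replicate values of 0.15 and -0.01 in KD1/CON, 0.37 and 0.07 in KD1/WT, and -0.30 and -0.02 in WT/CON. The membrane anchors SDHC and SDHD read 0.03 and -0.37 in KD1/CON. SDHD had the lowest mean of all subunits in WT/CON, -0.49, from replicate values of -0.60 and -0.38 (limma, adjusted p = 0.308). SDHC changed sign between the replicates of WT/CON, from -0.41 to 0.28. SDHA, the flavoprotein that holds the active site, is not a member and is described with the other subunits.

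Complex III passes electrons from ubiquinol to cytochrome c. UQCRB, which takes part in binding ubiquinone, was the highest subunit in both KD1 comparisons. It read 0.24, 0.30, 0.60 and 0.46 on the KD1/CON arrays, all above 0, and its mean of 0.40 ± 0.18 (SD, n = 2) was not called (limma, adjusted p = 0.452). In WT/CON its replicates fell on opposite sides of 0, at -0.60 and 0.21. UQCRH, the hinge protein, did likewise, at -0.24 and 0.52, and in KD1/WT at 0.35 and -0.60. UQCRFS1, the Rieske iron-sulfur protein, had replicate values of 0.42 and 0.43 in KD1/WT and of -0.49 and -0.34 in WT/CON. The core proteins UQCRC1 and UQCRC2 had means of 0.02 and -0.36 in KD1/CON.

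Complex IV reduces oxygen to water. Its 10 tested members had a median of -0.23 in KD1/CON, with 8 of 10 means below 0, 0.03 in KD1/WT with 5 of 10 below 0, and -0.07 in WT/CON with 9 of 10 below 0. By replicate these medians were -0.12 and -0.26, 0.02 and -0.18, and -0.21 and -0.08. COX7B, which like NDUFA1 is encoded on the X chromosome, read -0.24, -0.51, -0.64 and -0.64 on the KD1/CON arrays. It was also below 0 in WT/CON, with replicate values of -0.64 and -0.20, and its replicates in KD1/WT were 0.27 and -0.15. A further COX7B probe gave 0.08 and -0.73 in KD1/CON 0.03 and -0.94 in KD1/WT and 0.26 and 0.22 in WT/CON. The means of the 2 probes thus differed in sign in both WT comparisons, and so did their replicate 1 values in KD1/CON. COX5B and COX7C had means of -0.33 and -0.33 in KD1/CON and COX4I1, the largest nuclear subunit, 0.03.

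Complex IV has muscle and ubiquitous isoforms of some subunits. COX6A1, the ubiquitous isoform, had replicate values of -0.12 and -0.20 in KD1/CON, -0.66 and -0.35 in KD1/WT, and 0.50 and 0.14 in WT/CON. COX6A2, the muscle isoform, passed the background limit on 8 of 8 arrays per culture and had replicate values of -0.02 and 0.07, of -0.21 and 0.46, and of 0.15 and -0.27. Its arrays differed more between dye orientations than between cultures. COX6A2 read 0.09 and -0.52 on the 2 KD1/WT arrays of replicate 1, and 2.55 and -1.63 on those of replicate 2. Its mean dye effect, the part of the log2 ratio that stays with the dye, was 0.54 over the 6 pairs, and the next largest among the tested subunits was 0.24 (NDUFA5). The mean of COX6A2 rests largely on the pair that stood apart. Its single pairs ran from 0.14 to 2.09, with the highest in that pair, and those of NDUFA5 from 0.20 to 0.30. On the dye-swapped arrays alone COX6A2 would be called lower in KD1 than in WT at -1.08 (limma, adjusted p = 0.0346, and 0.0547 to 0.954 over the other settings). COX7A2, the ubiquitous partner of the COX7A1 gene that was not above background, had replicate values of -0.29 and -0.23, of -0.12 and -0.21, and of -0.12 and 0.06.

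Complex V makes ATP. Its 7 members had medians of -0.20 in KD1/CON, -0.20 in KD1/WT and -0.09 in WT/CON. Both KD1 medians rested on replicate 2, with -0.02 and -0.37 by replicate in KD1/CON and 0.04 and -0.51 in KD1/WT, where the sign turned. In WT/CON they were -0.13 and -0.06. ATP5C1, the gamma subunit that turns within the catalytic head, read -0.37, -0.39, -0.68 and -0.89 on the KD1/CON arrays. Its mean was -0.58 ± 0.29 (SD, n = 2), which was not called (limma, adjusted p = 0.229). In KD1/WT its replicates were 0.03 and -0.55. For ATP5B, the catalytic beta subunit, the replicate values were -0.00 and -0.06 in KD1/CON, 0.04 and 0.00 in KD1/WT, and -0.13 and -0.06 in WT/CON. ATP5A1, the alpha subunit beside it, had -0.02 and -0.39, 0.04 and 0.04, and -0.09 and -0.29. The c-ring genes ATP5G1 and ATP5G3 had means of 0.06 and -0.20 in KD1/CON and ATP5H, of the peripheral stalk, -0.32. ATP5H read -0.13 and -0.65 in the replicates of KD1/WT, and ATP5G1 read 0.11 and 0.51 in those of WT/CON.

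The replicates disagreed in sign for 11 of 49 subunits in KD1/CON, 27 in KD1/WT and 17 in WT/CON. The median SD between replicates was 0.10, 0.21 and 0.17 on the log2 scale, and 0.15, 0.29 and 0.25 over all tested genes. Where a gene had more than 1 tested probe, 21 of 24 further probes had the sign of the brightest one in KD1/CON, 18 in KD1/WT and 21 in WT/CON. The median absolute difference between them was 0.03, 0.06 and 0.04. The largest gaps were 0.36 (COX4I1), 0.55 (NDUFA10) and 0.66 (COX7B). Many of these genes have processed pseudogenes, whose transcripts a 60-base probe may also bind. Some further probes overlap the brightest one, as in NDUFA1, NDUFB9 and SDHD, so the agreement between probes is partly not independent.

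The subunit genes lie on 19 chromosomes, so their ratios could be set beside those of the genes next to them. For each, the median was taken over up to 10 tested genes on either side (NCBI36), a window of 0.274 to 13.7 Mb. Across the 49 subunits the own mean and that median correlated with Pearson r = 0.66 and Spearman rho = 0.60 in KD1/CON, 0.37 and 0.38 in KD1/WT, and 0.38 and 0.30 in WT/CON. Over all 15585 placed genes Pearson r was 0.37, 0.22 and 0.29. These are descriptions across genes that share the same arrays, and nearby subunits share neighbours. The subunits and all placed genes were not matched for signal strength or for the spread between replicates. The neighbours of NDUFA1 had a median of -0.50 in KD1/CON, beyond the 5th percentile of such medians (-0.33). NDUFV1 and NDUFS8, which lie within the same stretch at chr11:67136250-67136309 and chr11:67560352-67560411, had neighbour medians of -0.28 and -0.31. The neighbours of ATP5C1 had a median of -0.03, far from the -0.58 of that gene.

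The only respiratory chain genes called in any comparison were outside the member list. A list of 34 other subunits on the array, with 32 tested, held 2 that were higher in KD1 than in CON, where 0.775% of all probes were called higher. They were SDHA, the catalytic flavoprotein of complex II, and NDUFS6, an accessory subunit of complex I. Both lie near the tip of the short arm of chromosome 5, at chr5:304151-304210 and chr5:1855479-1867502 (NCBI36, plus strand), and their probes are shown because they carry the only calls.
SDHA: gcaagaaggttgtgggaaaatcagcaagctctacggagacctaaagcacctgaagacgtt
NDUFS6: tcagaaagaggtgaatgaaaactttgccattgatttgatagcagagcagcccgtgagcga
SDHA read 1.38, 1.28, 1.03 and 1.05 on the KD1/CON arrays, and its mean of 1.18 passed the test (limma, adjusted p = 0.0398, 0.00727 to 0.0874 over the alternatives). NDUFS6 read 1.67, 1.53, 1.32 and 1.14, and its mean of 1.42 passed it as well (limma, adjusted p = 0.0481, 0.00334 to 0.102). All arrays of both genes were thus more than 2-fold higher in KD1. Both calls were lost under several of the alternatives, among them the fit with the replicate number as a block (limma, adjusted p = 0.0672 and 0.0898). Neither was called in KD1/WT, where the means were 0.86 and 0.93 (limma, adjusted p = 0.115 and 0.155), nor in WT/CON, where they were 0.31 and 0.46. The replicates of SDHA were 0.76 and 0.96 in KD1/WT and 0.53 and 0.09 in WT/CON, and those of NDUFS6 were 1.38 and 0.48, and 0.10 and 0.82. The 15 tested genes next to SDHA had a median of 0.89 in KD1/CON and the 20 next to NDUFS6 one of 0.71, both above the 95th percentile of such medians (0.36). A second SDHA probe read 0.96 in KD1/CON and was not called (limma, adjusted p = 0.064). SDHA has near-identical pseudogenes, so a share of its signal may come from them. At the same time the 3 members of complex II read 0.07, 0.03 and -0.37 in KD1/CON.

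**Figure D5:**
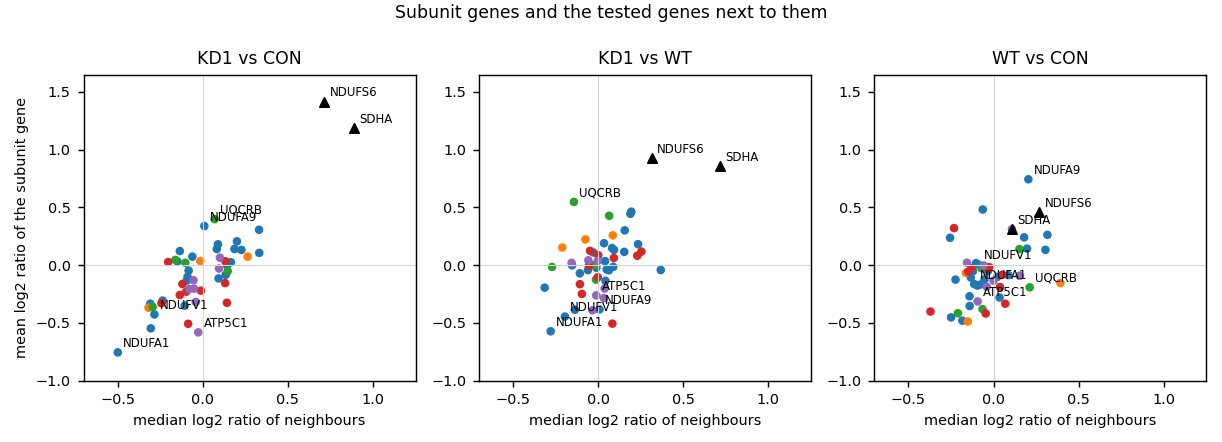
Mean log2 ratio of each subunit gene (y axis) against the median log2 ratio of up to 20 tested genes around it on the chromosome (x axis), coloured by complex (blue I, orange II, green III, red IV, purple V). Black triangles are SDHA and NDUFS6, which are not members; they lie at 0.89 and 0.71 on the x axis in KD1/CON, and NDUFA1 lies at -0.50.

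Other genes of the pathway gave no call. The counts at an unadjusted p under 0.05 are to be read against 17.2% of all probes in KD1/CON, 17.2% in KD1/WT and 16.5% in WT/CON. Among 29 assembly factors, which build the complexes, 0 were called in any comparison, and 5 in KD1/CON, 2 in KD1/WT and 2 in WT/CON had an unadjusted p under 0.05 (limma). Among the assembly factors, electron carriers, biogenesis regulators and citrate cycle genes, means beyond 2-fold belonged to 2 genes, which are named because of their values. ATPAF1, an assembly factor of complex V, read -1.73 and -0.56 in KD1/CON (limma, adjusted p = 0.0981) and -1.36 and -0.90 in KD1/WT (limma, adjusted p = 0.12). PPARGC1A, a coactivator of mitochondrial biogenesis, read 0.39 and 2.46 in KD1/WT (limma, adjusted p = 0.172) and -0.41 and -1.64 in WT/CON (limma, adjusted p = 0.297), with the larger value in replicate 2 of each. The 4 electron carrier genes, 19 tested regulators of mitochondrial biogenesis and 18 citrate cycle genes likewise held 0 calls. At an unadjusted p under 0.05 the carriers held 1, 0 and 0, the regulators 2, 3 and 1 and the citrate cycle 5, 2 and 0. Mitochondrial ribosomal proteins, which translate the subunits encoded in mitochondrial DNA, had medians of -0.04, 0.13 and -0.15 over 76 or 77 genes with 0 calls. At an unadjusted p under 0.05 they held 8, 4 and 4. Cytosolic ribosomal proteins, with 77 genes tested, had medians of -0.08, 0.18 and -0.20, 0 calls and 5, 5 and 5 genes at an unadjusted p under 0.05.

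The promoters of respiratory chain genes are known for sites of NRF1 and of the ETS factor GABP. Windows from 250 bases before to 50 after the annotated start (RefSeq, GRCh38.p14) were found for 39 of the 50 members, the complex V genes under newer names than on the array. On either strand, the NRF1 motif, in capitals in the NDUFA9, UQCRC1 and SDHD stretches with the base that varies among them free, occurred in 7 of 39 (17.9%), against 6.98% of all 27305 genes with a window and 9.66% of protein-coding ones. The ETS motif CCGGAAG occurred in 12 (30.8%, against 12.2% and 16.5%) and the YY1 motif AAGATGG in 11 (28.2%, against 7.11% and 7.9%). The CCAAT box, CCAAT, occurred in 13 (33.3%, against 39.7% and 42.1%). Stretches that end at least 23 bases before the start are printed, with the motif in capitals. They belong to the highest and lowest subunits with a motif, SDHD, with NRF1 and ETS, and UQCRC1, with ratios near 0. NDUFA9 and UQCRC1 also held the YY1 motif, after the start and so outside the printed stretch.
NDUFA9, NRF1, chr12:4649019-4649058, plus strand: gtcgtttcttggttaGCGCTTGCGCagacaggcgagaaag
UQCRC1, NRF1, chr3:48609669-48609708, minus strand: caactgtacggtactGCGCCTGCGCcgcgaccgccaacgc
SDHD, NRF1 then ETS, chr11:112086748-112086817, plus strand: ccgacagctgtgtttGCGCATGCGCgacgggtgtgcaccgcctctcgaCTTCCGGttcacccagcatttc
NDUFA1, ETS, chrX:119871770-119871806, plus strand: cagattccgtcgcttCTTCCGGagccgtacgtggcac
Genes with the NRF1 motif thus included the highest subunit of WT/CON (NDUFA9, 0.74), the lowest (SDHD, -0.49) and 1 near 0 (UQCRC1, -0.03). The others with it read -0.13 (NDUFA8), -0.27 (NDUFA3), -0.32 (ATP5C1) and -0.42 (UQCRFS1), so all but NDUFA9 were below 0 there. A match describes the letters in the window and says nothing of whether a factor was bound in these cells.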

How the data were processed

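Gene expression was measured on two-colour Agilent arrays. The authors scanned and extracted them with Agilent Feature Extraction 10.5.1.1, and the deposited intensity columns are processed Cy5 and Cy3 signals, background-subtracted and dye-normalized by linear and lowess scaling within each array. The deposited series table holds log2 ratios, which equalled the log10 LogRatio values of the authors' scanner files after conversion (largest difference 5.35e-06) and served as an alternative. Here log2 ratios of the processed signals were turned to KD1 vs CON, KD1 vs WT and WT vs CON, and averaged over spots without outlier flags (95 to 188 flagged spots per array) and over each dye-swap pair. This left 2 replicate values per comparison; the labels call them biological replicates without naming separate cultures, so p-values measure the spread between these extracts.

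A probe entered a comparison if, on each of its arrays, Cy3 or Cy5 signal was above 99% of the 153 negative controls. Tests used limma 3.58.1 in R 4.3.3, with 2 residual degrees of freedom, since the 3 ratios of a replicate come from 3 extracts, and Benjamini-Hochberg adjustment over all tested probes. Calls had an adjusted p under 0.05. The code was tested on simulated data. The number of arrays limits the precision. Replicate numbers pair the samples by construction, since each array holds 2 extracts of the same number. Alternatives were normexp with offset 50 and loess, median centring, the series table, other filters, extract levels with a replicate block, separate channels, averaged probes, single dye orientations and leaving out a replicate or the pair that stood apart. Genes named were the 5 lowest and 5 highest members of each comparison, the isoform pairs, the member not above background, called genes of the other lists, the loading controls and, with any member allowed, those that describe a complex. The members and lists were chosen with earlier results of these data known. Promoters and current names came from RefSeq (GRCh38.p14) with Python 3.11.15 and pandas 2.3.3; probe positions are those of the scanner files (NCBI36), which also name the genes. Figures used matplotlib 3.10.9. The values of 1 marker are not reported here.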

Additional observations from a re-analysis of the deposited data

How the results depend on the processing

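The count of called member subunits stayed at 0 in each comparison under the alternatives run, with 1 exception: on the dye-swapped arrays alone 1 subunit, COX6A2, was called in KD1 vs WT (-1.08). With extract levels and the replicate block, 0 were called (limma, lowest adjusted p of 0.137, 0.215 and 0.142 in KD1 vs CON, KD1 vs WT and WT vs CON). Those levels are already relative to the mean of their replicate, so this fit cannot show what the pairing does. Over all probes, 393, 261 and 365 were called in the 3 comparisons, 161, 107 and 131 with the replicate block, 26, 1 and 2 after normexp and loess, 254, 183 and 200 with no filter and 1191, 1457 and 1100 on the dye-swapped arrays alone. Leaving out a replicate leaves no residual degrees of freedom and gave no test; the median subunit then ran from -0.18 to -0.02 in KD1 vs CON, from -0.09 to 0.09 in KD1 vs WT and from -0.18 to -0.04 in WT vs CON. With median centring in place of lowess the median in WT vs CON was -0.20, and 12 of 49 means were below 0 in KD1 vs WT against 26; the cause was not tested. No scaling moved the median of all genes by over 0.1. COX6A2 changed sign with separate channels (-0.36) and swapped dyes (-0.12) in KD1 vs CON, with swapped dyes in KD1 vs WT (-1.08) and with the first orientation in WT vs CON (0.21), and COX7A2 with swapped dyes in WT vs CON (0.11); a single orientation keeps the dye effect. SDHA lost its call under 6 alternatives and NDUFS6 under 7, among them the replicate block (adjusted p = 0.0672 and 0.0898, limma), and both kept their direction.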
